A study of Mus musculus with 3 samples.

Results

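Neurotrophins are secreted growth factors that keep neurons alive and shape their wiring, and sympathetic neurons are a classic target. Each ligand acts through a tyrosine kinase of the Trk family, and all bind Ngfr, the p75 neurotrophin receptor, a member of the TNF receptor superfamily. Sortilin, made from Sort1, is a sorting receptor that binds the uncut precursors of neurotrophins together with Ngfr. The genes described here are 3 ligands (Bdnf, Ntf3 and Ntf5), 2 Trk kinases (Ntrk2, the receptor of BDNF and of neurotrophin-4, and Ntrk3, the receptor of neurotrophin-3), Ngfr and Sort1. They were chosen by name, not by value, and make up 7 of the 52550 genes in the deposited table.

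RNA was measured in cells positive for yellow fluorescent protein, sorted from superior cervical ganglia of male mice aged 10 weeks. All mice carried LepRCRE::Ai32: Cre at the leptin receptor gene and Ai32, a reporter of channelrhodopsin fused to yellow fluorescent protein that Cre switches on. The labels give 1 group of LepR+ cells in 3 biological replicates and no control group, and the reporter marks any cell that has expressed Cre at some stage. Levels are TPM, reads per gene length scaled to a fixed total per library, from Smart-Seq2 libraries in which cDNA is amplified by PCR.

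Reads recovered from the values of 49492 genes numbered from 6777749 to 7299476 per library, and between 16087 and 17130 of those genes had a read in each. Pearson's r across the 27390 genes with a read, on log2(TPM + 1), was 0.68 for each pair of libraries, and genes are not independent replicates. Lepr had 363, 32.1 and 54.0 TPM in replicates 1, 2 and 3. The submitters' title names them perineurial cells. Of 12 satellite glial and Schwann markers 10 reached 1 TPM in all 3 libraries, with a summed level of 27814 to 32820 TPM led by Fabp7, Apoe and Cdh19. Of 12 perineurial markers 6 did so, with a summed level of 467 to 770 TPM led by Cldn1, Sfrp5 and Ptch1. Fibroblast markers (Dcn, Lum and Col3a1 first) summed to 4463 to 6613 TPM, with 6 of 8 at 1 TPM in all 3. Endothelial markers (Emcn, Tek, Flt1) summed to 298 to 378 TPM, with 7 of 7, and mural markers (Rgs5, Mcam, Acta2) to 134 to 496 TPM, with 5 of 7. Sympathetic neuron markers (Slc18a2 and Tubb3 among the highest) summed to 124 to 317 TPM, with 2 of 12, and macrophage markers (Tyrobp, Cd68, Lyz2) to 1.51 to 101 TPM, with 0 of 8. Among defining markers Krt19, Pi16, Npy and Aif1 had no read in any library.

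The receptors, not the ligands, carried nearly all reads of the family. Ntrk2 and Sort1 stood near 60 TPM on average, Ntrk3 near 10 TPM with 1 library far below, and Ngfr near 1 TPM from a single library. Of 14027 reads on the 7 genes, 1 fell on a ligand. In sorted bulk cells, fewer expressing cells and less RNA per cell cannot be told apart.

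**Figure D1:**
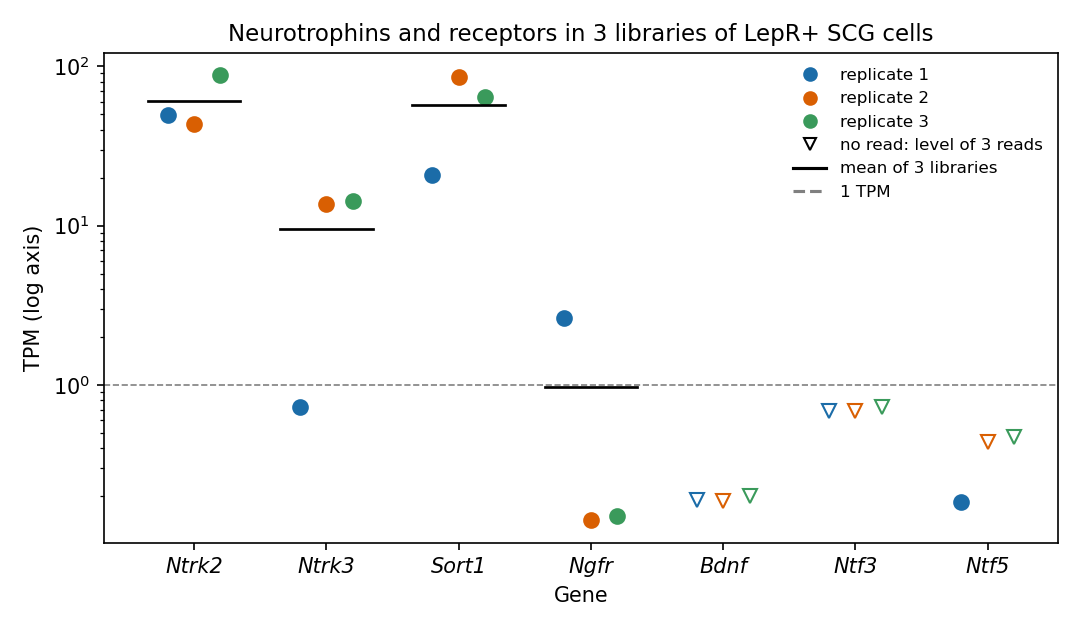
TPM on a log axis of the 7 genes in each of the 3 libraries, with the mean as a bar where every library has a read and open triangles at the level of 3 reads where a library has none. Ntrk2 and Sort1 lie above 20 TPM in every library, replicate 1 is the low point of Ntrk3 at 0.730 TPM and the high point of Ngfr at 2.64 TPM, and Bdnf and Ntf3 have no read.

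Bdnf (chromosome 2, 109674700 to 109727007 of GRCm38, forward strand), the ligand of TrkB, had 0 reads in each of replicates 1, 2 and 3. A level of 3 reads would be 0.189, 0.189 and 0.202 TPM, so a higher level of Bdnf would have been detectable within counting error. An antisense gene, Gm45346, overlaps 896 of the 6217 exon bases of Bdnf and also had 0 reads in every library. Ntf3 (chromosome 6, 126101412 to 126166910, reverse strand), the gene of neurotrophin-3, likewise had 0 reads in each library. Its exons are shorter, 1714 bases, and 3 reads would be 0.685, 0.684 and 0.731 TPM. Ntf5 (chromosome 7, 45413695 to 45417179, forward strand), the gene of neurotrophin-4, had 1, 0 and 0 reads, and 3 reads would be 0.443, 0.442 and 0.472 TPM. Its single read lay in replicate 1, so no ligand among the 3 was read in replicate 2 or 3.

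Ntrk2 (chromosome 13, 58806569 to 59133970, forward strand) encodes TrkB, the kinase for BDNF and neurotrophin-4, and is also known for a truncated form without the kinase that glial cells make. It had 49.7, 43.2 and 87.7 TPM in replicates 1, 2 and 3, from 2450, 2134 and 4050 reads. All 3 libraries were high and within 2.03-fold of each other, with replicate 3 above the other two. The mean, 60.2 ± 24.0 TPM (SD, n = 3), exceeded that of 89.5% of the 27390 genes with a read. The exact 95% Poisson interval, which covers counting error only, was 85.0 to 90.5 TPM in replicate 3 and 47.8 to 51.7 TPM in replicate 1, so counting error does not span the gap. The deposited values are per gene, so they do not separate full-length from truncated TrkB. Of 4 genes annotated inside Ntrk2 none shares an exon base with it, although C630044B11Rik had 0, 123 and 0 reads and the antisense gene Gm47423 had 70, 6 and 0 reads.

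Sort1 (chromosome 3, 108284082 to 108361511, forward strand), the gene of sortilin, had 20.6, 85.8 and 64.4 TPM, from 399, 1661 and 1167 reads. Replicate 1 was the low library, 4.15-fold under replicate 2. Averaging 56.9 ± 33.2 TPM (SD, n = 3), it exceeded 88.9% of genes with a read. The antisense gene Gm12523 overlaps 338 of its 7569 exon bases and had 0, 2 and 0 reads.

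Ntrk3 (chromosome 7, 78175959 to 78738012, reverse strand) encodes TrkC, the kinase for neurotrophin-3. It had 0.730, 13.7 and 14.2 TPM, from 56, 1061 and 1023 reads. Replicates 2 and 3 lay close together and replicate 1 was 19.4-fold below replicate 3. The mean was 9.55 ± 7.64 TPM (SD, n = 3), above 68.8% of genes with a read. Of 4 genes annotated inside Ntrk3 none shares an exon base with it, although Gm44607 had 43.8 TPM from 122 reads in replicate 2.

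Ngfr (chromosome 11, 95568818 to 95587735, reverse strand), the p75 receptor, is known from sympathetic neurons and from Schwann and satellite glial cells. It had 2.64, 0.142 and 0.152 TPM, from 23, 1 and 1 reads. Replicate 1 was thus the high library of Ngfr and the low one of Ntrk3, and 1 read each does not order replicates 2 and 3. The exact 95% Poisson interval was 1.66 to 3.92 TPM in replicate 1, and ran up to 0.632 TPM in replicate 2 and to 0.676 TPM in replicate 3. The mean was 0.978 ± 1.44 TPM (SD, n = 3), above 48.4% of genes with a read. In the same 3 libraries the glial marker Erbb3 had 325 ± 75.5 TPM and S100b 551 ± 106 TPM (SD, n = 3), high in every library. Of the same list Gfap had 30, 0 and 1 reads, highest in replicate 1 like Ngfr, and Foxd3 had 51, 78 and 1 reads. These 4 were named after their values were seen.

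The levels of Ntrk3 and Ngfr turned on replicate 1, which Lepr and the macrophage markers also set apart. Lepr was highest there, as given above. Macrophage markers summed to 1.51, 85.2 and 101 TPM in replicates 1, 2 and 3, with 0, 4 and 3 of 8 at 1 TPM or more. Mural and sympathetic neuron markers set replicate 3 apart instead. Mural markers summed to 496, 349 and 134 TPM, and sympathetic neuron markers to 124, 133 and 317 TPM with 3, 6 and 4 of 12 at 1 TPM or more. Their part in the levels of Ntrk3 and Ngfr was not tested.

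With 1 group, the test that the design allows is of a level against a fixed value. limma compared the mean log2(TPM + 1) of each of the 27390 genes with a read to the value that 1 TPM has on this scale. Ntrk2 lay above 1 TPM by 4.87 on that scale (limma, adjusted p = 0.00605) and Sort1 by 4.64 (limma, adjusted p = 0.0204), both in 3 of 3 libraries. Ntrk3 stood 1.87 above that level without passing the test (limma, adjusted p = 0.178), with 2 of 3 libraries above it. Ngfr differed from it by -0.25 (limma, adjusted p = 0.696), with 1 of 3 libraries above. Ntf5 was below by 0.88 (limma, adjusted p = 0.0489) on the strength of 1 read. Bdnf and Ntf3 had no read and were not tested. Thus 2 of the 5 members tested (40%) were called above 1 TPM, where 16.1% of all genes tested were. Of the same 5, 1 (20%) was called below, where 13.2% of all genes tested were. The median of mean log2(TPM + 1) was 0.75 over all 7 genes and 0.39 over the 52550 genes in the table.

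Most calls of the members were lost without 1 library, while the differences of Ntrk2 and Sort1 from 1 TPM stayed between 4.23 and 5.24 on the log2(TPM + 1) scale. Without replicate 1 or replicate 2 limma called 0 genes of 27390 above 1 TPM (4646 and 4453 at an unadjusted p under 0.05). The call of Ntrk2 was lost there (limma, adjusted p = 0.0822 and 0.0713) and kept without replicate 3 (limma, adjusted p = 0.0359). That of Sort1 was lost without any 1 replicate (limma, adjusted p = 0.0711, 0.0891 and 0.128 without replicates 1, 2 and 3), and that of Ntf5 likewise (limma, adjusted p = 0.0822, 0.0772 and 0.0724).

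In order of mean level the receptors ran Ntrk2, Sort1, Ntrk3 and Ngfr. Ntrk2 and Sort1, the first neighbours, did not differ beyond their spread: Ntrk2 minus Sort1 was 0.23 ± 1.11 in log2(TPM + 1) within a library (SD, n = 3), with 2 of 3 libraries positive (exact sign-flip permutation test, two-sided, p = 0.75, adjusted p = 0.75 over 6 pairs). By the median over libraries Sort1 came first, at 64.4 TPM, with Ntrk2 at 49.7 TPM. Sort1 minus Ntrk3 was 2.77 ± 0.79 and positive in 3 of 3 libraries (exact sign-flip permutation test, p = 0.25, adjusted p = 0.375). That p of 0.25 is the smallest that 3 libraries allow, so no pair could pass a threshold. Ntrk3 minus Ngfr was 2.11 ± 2.76, with -1.07 in replicate 1 and 3.69 and 3.72 in replicates 2 and 3 (exact sign-flip permutation test, p = 0.5, adjusted p = 0.6). Ntrk3 and Ngfr therefore changed places in replicate 1. Ntrk2 exceeded Ngfr by 5.11 ± 1.24 and Ntrk3 by 3.00 ± 1.69, each in 3 of 3 libraries (exact sign-flip permutation test, p = 0.25, adjusted p = 0.375 for each).

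**Figure D2:**
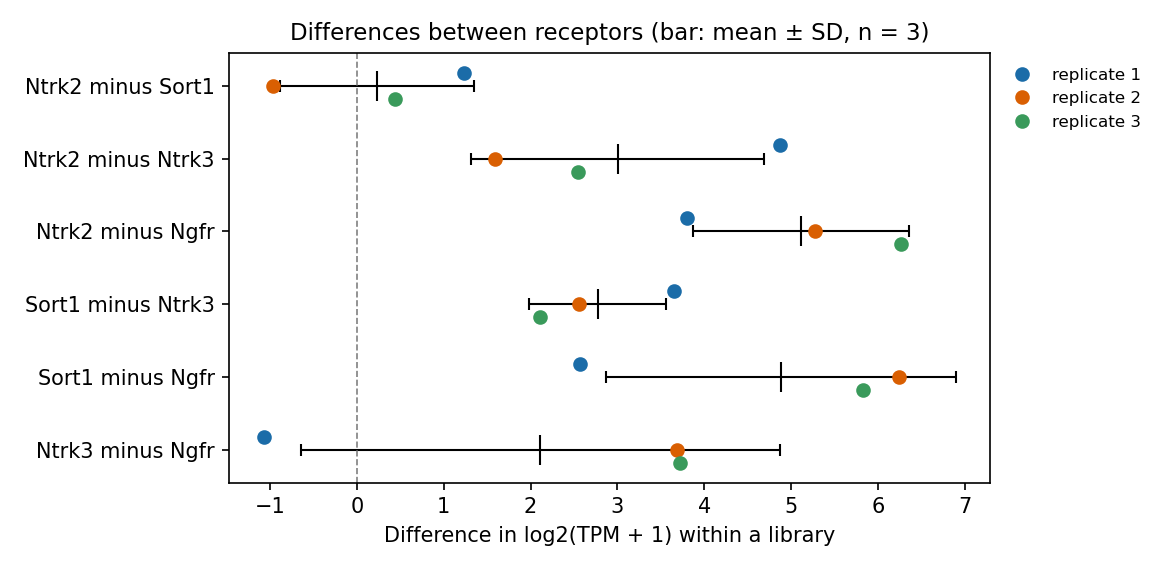
Differences in log2(TPM + 1) between 2 receptors within each library (points), with the mean and SD over the 3 libraries (bars), for the 6 pairs with reads in every library. The difference of Ntrk2 minus Sort1 crosses 0, Ntrk3 minus Ngfr is -1.07 in replicate 1 and above 3 in the others, and the other 4 pairs are positive in all 3 libraries.

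The balance between receptors shifted from library to library. Of the summed TPM of the 7 genes, which was 74.0, 143 and 167 in replicates 1, 2 and 3, Ntrk2 took 67.2%, 30.2% and 52.7%. Sort1 took 27.9%, 59.98% and 38.7%, and was the larger of the pair in replicate 2 alone. Ntrk3 took 0.986%, 9.61% and 8.51%. The ratio of Ntrk2 to Ntrk3 was 68.1, 3.15 and 6.19.

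TPM depends on the length assigned to a gene, and the Trk genes have long exon unions, 19.3 kb for Ntrk2 and 30.2 kb for Ntrk3 in GENCODE M21. The longest protein-coding transcript has 8744 bases for Ntrk2, 19703 for Ntrk3, 6836 for Sort1 and 3446 for Ngfr. With these lengths, on the same scale, the recovered reads gave 133 ± 53.0 for Ntrk2, 63.0 ± 36.8 for Sort1, 14.6 ± 11.7 for Ntrk3 and 0.949 ± 1.44 for Ngfr (SD, n = 3). The order of these means was the same, and the gap between Ntrk2 and Sort1 widened. On these lengths Ntrk2 was 110, 95.4 and 194 in replicates 1, 2 and 3, and Sort1 was 22.8, 94.9 and 71.3. Ntrk2 was then the higher in every library, by little in replicate 2. The larger value of Sort1 in replicate 2 and its first place by the median thus did not hold with these lengths.

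The spread between libraries was large for most genes, and the members were compared with the 500 genes nearest in mean level. The SD of log2(TPM + 1) was 0.53 for Ntrk2, where the median of its 500 neighbours was 0.86, and 27.6% of these had a smaller SD. For Sort1 it was 1.06, against a median of 1.00, with 54.6% smaller. Ntrk3 had an SD of 1.80, against a median of 2.33, with 29.4% smaller, so a swing like that of Ntrk3 was common at its level. Ngfr had 0.96, against a median of 0.74, with 78.4% smaller. These are descriptions over 3 libraries, and no test was made.

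**Figure D3:**
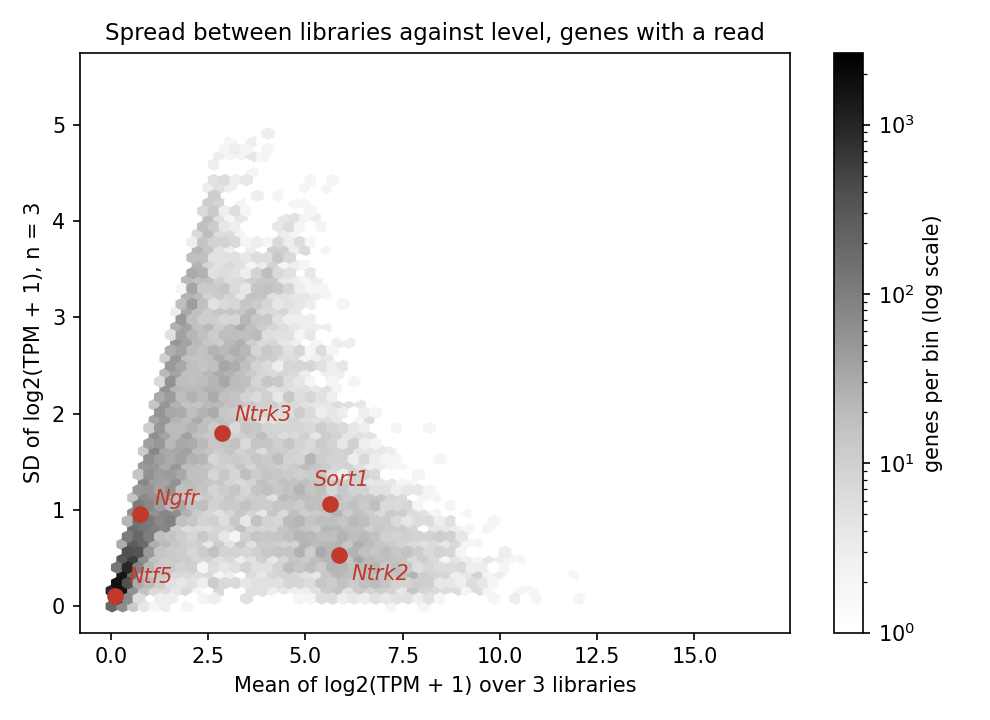
SD of log2(TPM + 1) over the 3 libraries against its mean, for the 27390 genes with a read (grey bins, log shading), with the 5 neurotrophin and receptor genes that have a read in red. Ntrk2 and Ntrk3 have an SD under the median of genes of like level (0.53 against 0.86 and 1.80 against 2.33), and Ngfr has an SD above it.

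By Euclidean distance in log2(TPM + 1) over the 3 libraries, the protein-coding genes nearest to Ntrk2 were Gtf2a2 and Lgi1, at distances of 0.15 and 0.21. Nearest to Sort1 were Ssu72 and Larp4b, at 0.07 and 0.21, and nearest to Ntrk3 were Prkab1 and Serpinf1, at 0.43 and 0.45. For Ngfr they were 1700021F07Rik and Adamts17, at 0.03 and 0.05. Within a distance of 0.5 lay 41 genes for Ntrk2, 16 for Sort1, 8 for Ntrk3 and 152 for Ngfr, out of 17126. With 3 libraries many genes share a profile by level alone.

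Set within their protein families, lists written after the values had been seen and not tested, the Trk kinases spread widely. Of 58 receptor tyrosine kinase genes Ntrk2 ranked 4 by mean TPM, and 5, 9 and 2 in replicates 1, 2 and 3. Erbb3, the neuregulin receptor of Schwann cells, came first in every library. Ntrk3 ranked 20, and 16 of the 58 reached 1 TPM in all 3 libraries. Ngfr ranked 7 of 25 TNF receptor superfamily genes by mean TPM, and 5, 12 and 10 in replicates 1, 2 and 3. Its ranks in replicates 2 and 3 rest on 1 read each, so the added 0.25 read and gene length weigh on them. The death receptor gene Fas led this family at 165 ± 124 TPM (SD, n = 3). Among the 5 receptors with a VPS10 domain Sort1 ranked 2 by mean TPM, after Sorcs1, and 2, 2 and 1 in replicates 1, 2 and 3. The 2 genes were far apart only in replicate 1, at 20.6 TPM for Sort1 and 131 TPM for Sorcs1.

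Beyond the ligands and receptors, 58 genes that act with them were read from the same limma fit. Of these, 20 were above 1 TPM, 4 below, 29 neither and 5 had no read. So 37.7% of the 53 tested were above, where 16.1% of all genes tested were. Of the 27390 genes tested, 17126 outside the members were protein-coding. Neither the share above 1 TPM nor the median level was computed for protein-coding genes alone. The 4 below, named after their values were seen, were Tnfrsf19, Pcsk1, Shc2 and Sh2b2, with at most 3 reads each over the libraries. Named first in each group are the 5 genes with the highest mean TPM. Without replicate 1 or replicate 2 the count above was 0, as for all genes, and without replicate 3 it was 11.

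Co-receptors and relatives of sortilin divided sharply: of 9 genes 3 were above, 1 below, 4 neither and 1 had no read. Kidins220, a scaffold of Trk receptors and Ngfr, had 98.9 ± 52.7 TPM (SD, n = 3; limma, adjusted p = 0.0093). Sorcs1, a VPS10 receptor like sortilin, had 131, 85.8 and 60.3 TPM (limma, adjusted p = 0.00521). Sorcs1 was thus high in all 3 libraries, with replicate 1 the highest, whereas Sort1 was lowest in replicate 1. Sorcs2, which binds proneurotrophins with Ngfr, had 3.57, 10.8 and 7.18 TPM (limma, adjusted p = 0.0489). Lingo1, a partner of Ngfr in the receptor for myelin inhibitors, had 0, 1 and 176 reads, and Nradd, a relative of Ngfr, had 0, 4 and 0 reads. Rtn4r, the Nogo receptor, was the gene without a read.

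Genes of proteins that pass on the signal of Ngfr, most of which also serve other receptors, were read although Ngfr itself was scarce. Of 13 such genes 5 were above, 0 below (2 below at an unadjusted p under 0.05 in limma, and 2 below with a mean-variance trend) and 8 neither. Bex3, an adaptor that binds the death domain of Ngfr, had 118 ± 40.4 TPM (SD, n = 3; limma, adjusted p = 0.00452), and the small GTPase gene Rhoa had 56.0 ± 17.9 TPM (limma, adjusted p = 0.00488). Maged1, also a binding partner of Ngfr, had 9.11, 1.82 and 264 TPM, and its relative Ndn had 2.15, 149 and 0.141 TPM. Prdm4, a zinc finger protein that binds Ngfr, had 74.3, 42.8 and 1.297 TPM. Maged1, Ndn and Prdm4 each had 1 library far from the others and did not pass the test (limma, adjusted p = 0.194, 0.414 and 0.132). The median of mean log2(TPM + 1) of the 13 was 4.29, against 0.89 for all genes tested.

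Of 16 adaptors and effectors of Trk kinases, 7 were above 1 TPM, 2 below, 6 neither and 1 had no read. Gab1, a docking protein, had 195 ± 73.3 TPM (SD, n = 3; limma, adjusted p = 0.00387), and the adaptor gene Crk had 118 ± 84.6 TPM (limma, adjusted p = 0.0312). The exchange factors of Ras, Sos1 and Sos2, had 71.1 ± 27.2 and 24.2 ± 5.78 TPM (limma, adjusted p = 0.00688 and 0.00655). Plcg1, the phospholipase that Trk kinases activate, had 65.4, 30.3 and 2.78 TPM and did not pass (limma, adjusted p = 0.0854). The median of the 15 with a read was 3.41.

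Neurotrophins are made as precursors that furin-like proteases cut inside the cell and plasmin outside it. Of 13 genes of this group 1 was above, 1 below, 8 neither and 3 had no read, and the median of the 10 with a read was 0.58, against 0.89 for all genes tested. Plat, the plasminogen activator, was the gene above, at 29.5, 79.7 and 16.1 TPM (limma, adjusted p = 0.0309). Pcsk7 had 62.4, 39.4 and 0.422 TPM, Pcsk6 0.245, 0.320 and 85.4 TPM, and Pcsk5 3.03, 0.638 and 6.85 TPM. Pcsk7 was lowest in replicate 3, where Pcsk6 and Pcsk5 were highest, and none of the 3 passed the test (limma, adjusted p = 0.191, 0.543 and 0.277). Serpini1, an inhibitor of Plat, had 1, 0 and 63 reads. Furin, named here after its values were seen, had 10, 2 and 3 reads.

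Ngfr is cut in the membrane by an alpha-secretase and then by gamma-secretase, enzymes with many other substrates. Of 7 genes 4 were above, 0 below (0 below at an unadjusted p under 0.05 in limma) and 3 neither, with a median of 4.29. The metalloprotease genes Adam10 and Adam17 had 293 ± 89.4 and 83.5 ± 29.3 TPM (SD, n = 3; limma, adjusted p = 0.00341 and 0.00561). Psenen and Ncstn, subunits of gamma-secretase, had 94.5 ± 44.4 and 13.1 ± 7.08 TPM (limma, adjusted p = 0.00925 and 0.0298).

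**Figure D4:**
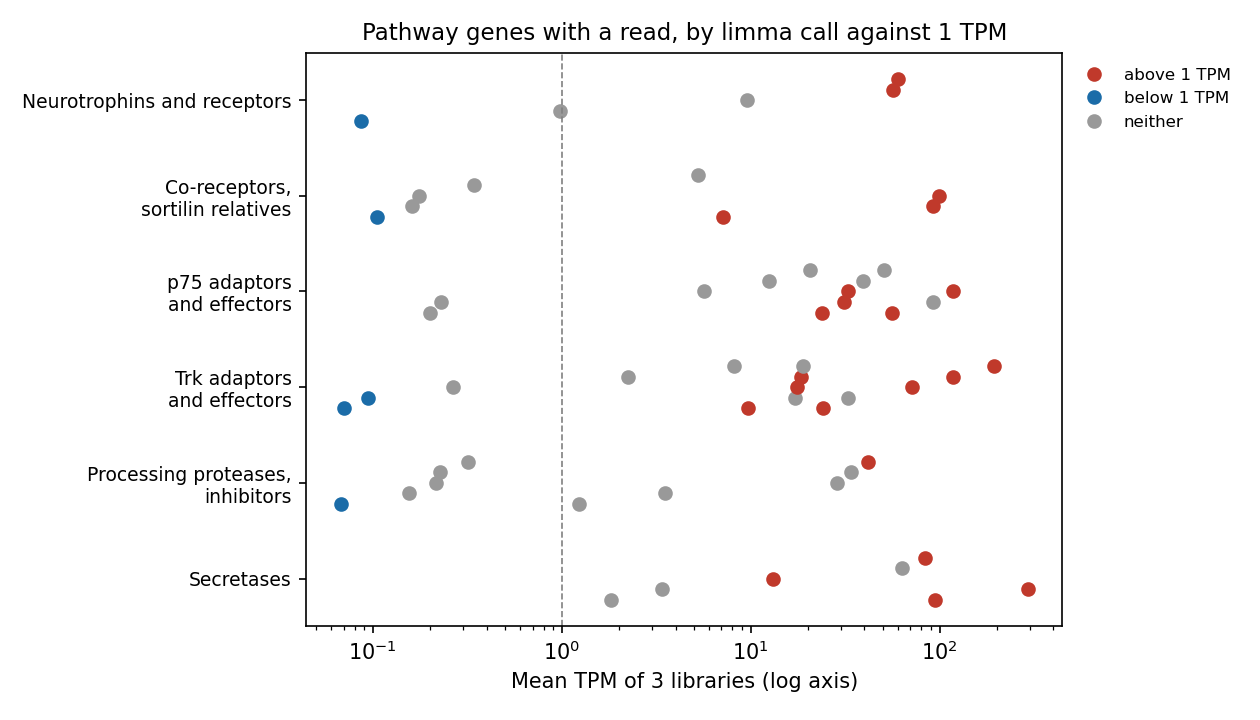
Mean TPM over the 3 libraries, on a log axis, of each gene with a read, by group, coloured by limma's call against 1 TPM (dashed line). Of the 53 genes tested outside the neurotrophins and receptors 20 are above and 4 below, and in the top row Ntrk2 and Sort1 are the 2 above.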

How the data were processed

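The table the authors deposited holds log2 TPM of 52550 genes in 3 libraries. Per the submitters' processing notes, mm10 (GRCm38), STAR and featureCounts were used. Their versions, the annotation, the strand setting and how TPM was computed are not given in the sources used. TPM is relative to gene length and library total, of which mitochondrially encoded genes took 19.9% to 21.1%.

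The values showed 0.25 read added per gene. With exon lengths from GENCODE M21 (same build), whole reads, within 0.001 of a read, were recovered for 49492 genes, all 7 members included, and not for 3058. Of the latter, genes with equal scaled values in all libraries were taken as without a read. The deposited values, not the reads, went into means, SDs and tests. PCR reads lack molecular identifiers, so intervals and levels of 3 reads cover counting error only.

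Mean log2(TPM + 1) was tested against 1 TPM with limma 3.58.1 in R 4.3.3 (two-sided, Benjamini-Hochberg over 27390 genes with at least 1 read, threshold 0.05). This scale understates differences of low genes. A check on normally distributed simulated data recovered an added shift, which a mean does by construction. That recovery says nothing about the error rate of the calls. Whether libraries came from separate animals is not stated, so p-values measure the spread between these libraries. Other work used Python 3.11.15, numpy 2.4.6, pandas 2.3.3, scipy 1.17.1, statsmodels 0.14.6 and matplotlib 3.10.9.

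The members and lists were chosen with earlier results of these data known. Genes named were the 7 members, Lepr, the 5 highest of each pathway list, the 3 highest of each marker list and the 2 nearest genes per member (some genes this rule names are not reported here); any other is named as chosen after its values were seen, or because a small count or an annotation overlap includes it. Alternatives were the pseudocount, the filter, the tested level, mitochondrial genes left out, a mean-variance trend, each library left out, and, added after seeing the data, another gene length.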

Additional observations from a re-analysis of the deposited data

How the results depend on the processing

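Ntrk2 and Sort1 were above 1 TPM under every alternative with all 3 libraries, and Ntrk3 and Ngfr passed under none. Leaving out 1 library in turn, the count of genes above, 4419, ranged from 0 to 2434, that below, 3621, from 0 to 4882. The members above, 2, ranged from 0 to 1, and those below, 1, fell to 0 without any 1 replicate. The 20 pathway genes above ranged from 0 to 11 and the 4 below from 0 to 9. Counts below 1 TPM also moved with other settings, in the order genes, members and pathway genes. They were 29850, 3 and 16 with no filter, where genes without a read enter, and 0, 0 and 0 with a mean of at least 0.5 TPM, which removes low genes. They were 0, 0 and 0 at a level of 0.5 TPM and with mitochondrially encoded genes left out. At a level of 2 TPM 10954 genes and 14 pathway genes were below, and with a mean-variance trend 9639 and 14, with 1 member in each; the cause was not tested. Ngfr turned to 0.17 above the level at 0.5 TPM, and leaving out 1 replicate it ranged from -0.80 to 0.0339 against 1 TPM (0.0277 without replicate 3), called in none. In the deposited values, ranked by the median over libraries, Sort1 was 1 and Ntrk2 was 2. In the same values Ntrk2 minus Sort1 ranged from -0.27 (without replicate 1) upward to 0.83 without replicate 2. Members' mean TPM moved by less than 1 SD with mitochondrially encoded genes left out. With 1 of 3 libraries left out a mean cannot move by 1 SD whatever its values, so that limit decides nothing there. The mean of Ngfr, 0.978 TPM with all 3 libraries, was 0.147, 1.396 and 1.391 TPM without replicates 1, 2 and 3. With the length of the longest transcript, added after seeing the data, the mean of Ntrk2 moved to 133 and the others by less than 1 SD. No paired analysis was possible because there is 1 group. Depth limits Bdnf, Ntf3 and Ntf5 to statements about levels above 3 reads.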
